A study of Mus musculus with 47 samples.

Results

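Mouse cells answer interferon gamma with large families of interferon-inducible GTPases, of which 10 were followed here through 47 liver transcriptomes. They were taken from the deposited table by gene symbol and make up 10 of its 20320 genes. They comprise 7 immunity-related GTPases (Irgm1, Irgm2, Igtp, Iigp1, Ifi47, Tgtp1 and Tgtp2) and 3 guanylate-binding proteins (Gbp2, Gbp3 and Gbp7). All 10 passed the filter on low counts, as did 16650 genes in all. Iigp1 and Tgtp2 passed it through the C57BL/6J and NZO/HlLtJ libraries, in which they are high.

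The mice were wild-type, with no treatment besides diet, and came from 3 inbred strains. NZO/HlLtJ is an obesity-prone laboratory strain, CAST/EiJ is derived from wild Mus musculus castaneus mice, and C57BL/6J is the common laboratory strain whose genome is the mouse reference. From week 6 of age, females and males of each strain ate a diet with 44% fat, described as high in fat and sugar, or a control diet with 10% fat. Both diets carried added fiber. Livers were taken at week 15. The 12 groups of strain, sex and diet had 4 libraries each, and only 3 for male CAST/EiJ mice fed 10% fat. The labels give no replicate numbers, and those used here follow the order of the library identifiers within each group. Each library is taken as a separate mouse. Where that does not hold, p-values measure only the spread between libraries.

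Total counts were 21.6 to 47.8 M per library. The lowest count of a member gene in a C57BL/6J or NZO/HlLtJ library was 43, and in CAST/EiJ 8 of 10 members had at least 49 counts in every library. Xist was at 787 to 1355 CPM (counts per M counts of the library) in the 24 female libraries and at most 4.29 CPM in the 23 male ones. Hepatocyte markers were abundant in every library. The sum of Alb, Ttr, Apoa1, Cps1 and Hnf4a was at least 43350 CPM. In 5 libraries the pancreatic acinar gene Cpa1 reached 20 CPM or more, and results that change without them are named.

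Immunity-related GTPases (IRGs) assemble on the vacuoles in which parasites such as Toxoplasma gondii and bacteria such as Chlamydia live, and help to break them open. They are usually divided into regulators, which sit on the cell's own membranes and hold the others inactive there (Irgm1, Irgm2 and Igtp, also called Irgm3), and effectors, which load onto the vacuole (Iigp1 or Irga6, Ifi47 or Irgd, Tgtp1 and Tgtp2 or Irgb6). Guanylate-binding proteins (GBPs) are larger GTPases that follow the IRGs to such vacuoles and to free bacteria. Interferon gamma induces both families, and its signalling acts on GAS elements in promoters. Irf1, a transcription factor that interferon gamma induces, and the type I interferon complex ISGF3 act on ISRE elements.

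In the mouse genome (GRCm38), Irgm1 (chr11:48861968-48871683, minus strand), Tgtp1 (chr11:48985327-48994172, minus), Tgtp2 (chr11:49057194-49064206, minus) and Ifi47 (chr11:49076587-49096974, plus) are neighbours. Igtp (chr11:58199556-58207591, plus) and Irgm2 (chr11:58199618-58222782, plus) overlap farther along the same chromosome. Their annotated exons share 162 bases. Gbp7 (chr3:142530342-142550149), Gbp3 (chr3:142560026-142573209) and Gbp2 (chr3:142620602-142638008) follow each other on the plus strand of chromosome 3.

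RefSeq promoter windows (GRCm38.p6, 250 bases before to 50 bases after the start of transcription) were at hand for 9 of the 10 members, all but Iigp1. They were searched on both strands for an ISRE core, GAAA and GAAA with any 2 bases between them, and a GAS core, TTCNNNGAA. An ISRE core was found for 8 of the 9, against 3.44% of all 32851 mouse windows of this length. A GAS core was found for 5 of the 9, against 8.3% of all windows. Those 5 held both motifs, against 0.454% of all windows. The stretches that hold the motifs are shown because the members moved together in the results, in which the motifs' part was not tested. Each is given 5′ to 3′ on the gene's strand with the motifs in capitals.
Irgm1 (chr11:48871425-48871460, minus): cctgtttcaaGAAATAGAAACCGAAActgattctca
Irgm2 (chr11:58214892-58214932, plus): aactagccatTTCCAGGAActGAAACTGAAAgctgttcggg
Igtp (chr11:58199501-58199541, plus): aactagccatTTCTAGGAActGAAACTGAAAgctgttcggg
Tgtp1 (chr11:48992304-48992344, minus): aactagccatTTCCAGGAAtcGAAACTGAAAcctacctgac
Tgtp2 (chr11:49064263-49064303, minus): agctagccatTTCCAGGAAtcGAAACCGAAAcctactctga
Gbp2 (chr3:142620594-142620623, plus): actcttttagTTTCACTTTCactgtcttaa
Gbp3 (chr3:142559989-142560024, plus): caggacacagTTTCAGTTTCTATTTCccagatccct
Gbp7 (chr3:142530220-142530302, plus): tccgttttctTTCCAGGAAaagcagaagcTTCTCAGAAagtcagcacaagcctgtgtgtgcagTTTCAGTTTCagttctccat

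In Irgm2, Igtp, Tgtp1 and Tgtp2 the GAS core is followed closely by the ISRE core, which starts 64, 34, 77 and 70 bases before the start of transcription. Tgtp1 and Tgtp2 share this block although their whole windows are only 66.8% identical. In Irgm1 and Gbp3 2 ISRE cores overlap. In the 3 Gbp genes the ISRE core lies on the opposite strand, so it reads TTTC and TTTC. Neither motif is in the Ifi47 window or in the second window of Gbp3. These letters are from the reference genome and say nothing of the CAST/EiJ or NZO/HlLtJ sequence.

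The strains' sequence differences and near-identical gene copies both bear on how reads were assigned. Of all 100-base stretches in the annotated transcripts, 73.1% of Tgtp1's and 76.8% of Tgtp2's also occur in a transcript of another gene, each other or Gm12185. For Gbp7 the share is 10%, for Igtp 5.16%, for Irgm2 3.01%, and for Gbp3 and Ifi47 under 1%. None of Iigp1's, Irgm1's or Gbp2's stretches recur. The Tgtp1 and Tgtp2 coding sequences are both 1245 bases long and differ at 4 positions, counted from the first coding base: G270C, C408T, C729T and C735A, with Tgtp1's base first. The differing bases are in capitals in these stretches of coding positions 258 to 282, 396 to 420 and 717 to 747, shown because they are the coding letters by which a read can be given to one copy.
Tgtp1, 258 to 282: agcccccactggGgcaatagagaca
Tgtp2, 258 to 282: agcccccactggCgcaatagagaca
Tgtp1, 396 to 420: gtttggtgagtaCgacttcttcatt
Tgtp2, 396 to 420: gtttggtgagtaTgacttcttcatt
Tgtp1, 717 to 747: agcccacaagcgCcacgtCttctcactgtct
Tgtp2, 717 to 747: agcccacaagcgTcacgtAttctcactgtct

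Levels are CPM scaled by TMM (trimmed mean of M-values) factors. Per kilobase of exon, the effector Iigp1 had the highest mean level of the 10 genes in NZO/HlLtJ (54.1 CPM per kb) and in C57BL/6J (55.4 CPM per kb). The regulators followed. Igtp averaged 24.9 and Irgm2 17.5 CPM per kb in NZO/HlLtJ, against 19.1 and 19.6 CPM per kb in C57BL/6J. The 3 GBPs and the 2 Tgtp genes were the lowest, between 1.8 and 4.17 CPM per kb in both strains. In CAST/EiJ the order was another. Irgm1 led with 7.82 CPM per kb, ahead of Irgm2 with 6.49, Igtp with 5.49 and Ifi47 with 4.73, and Iigp1 was last with 0.00821 CPM per kb.

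**Figure D1:**
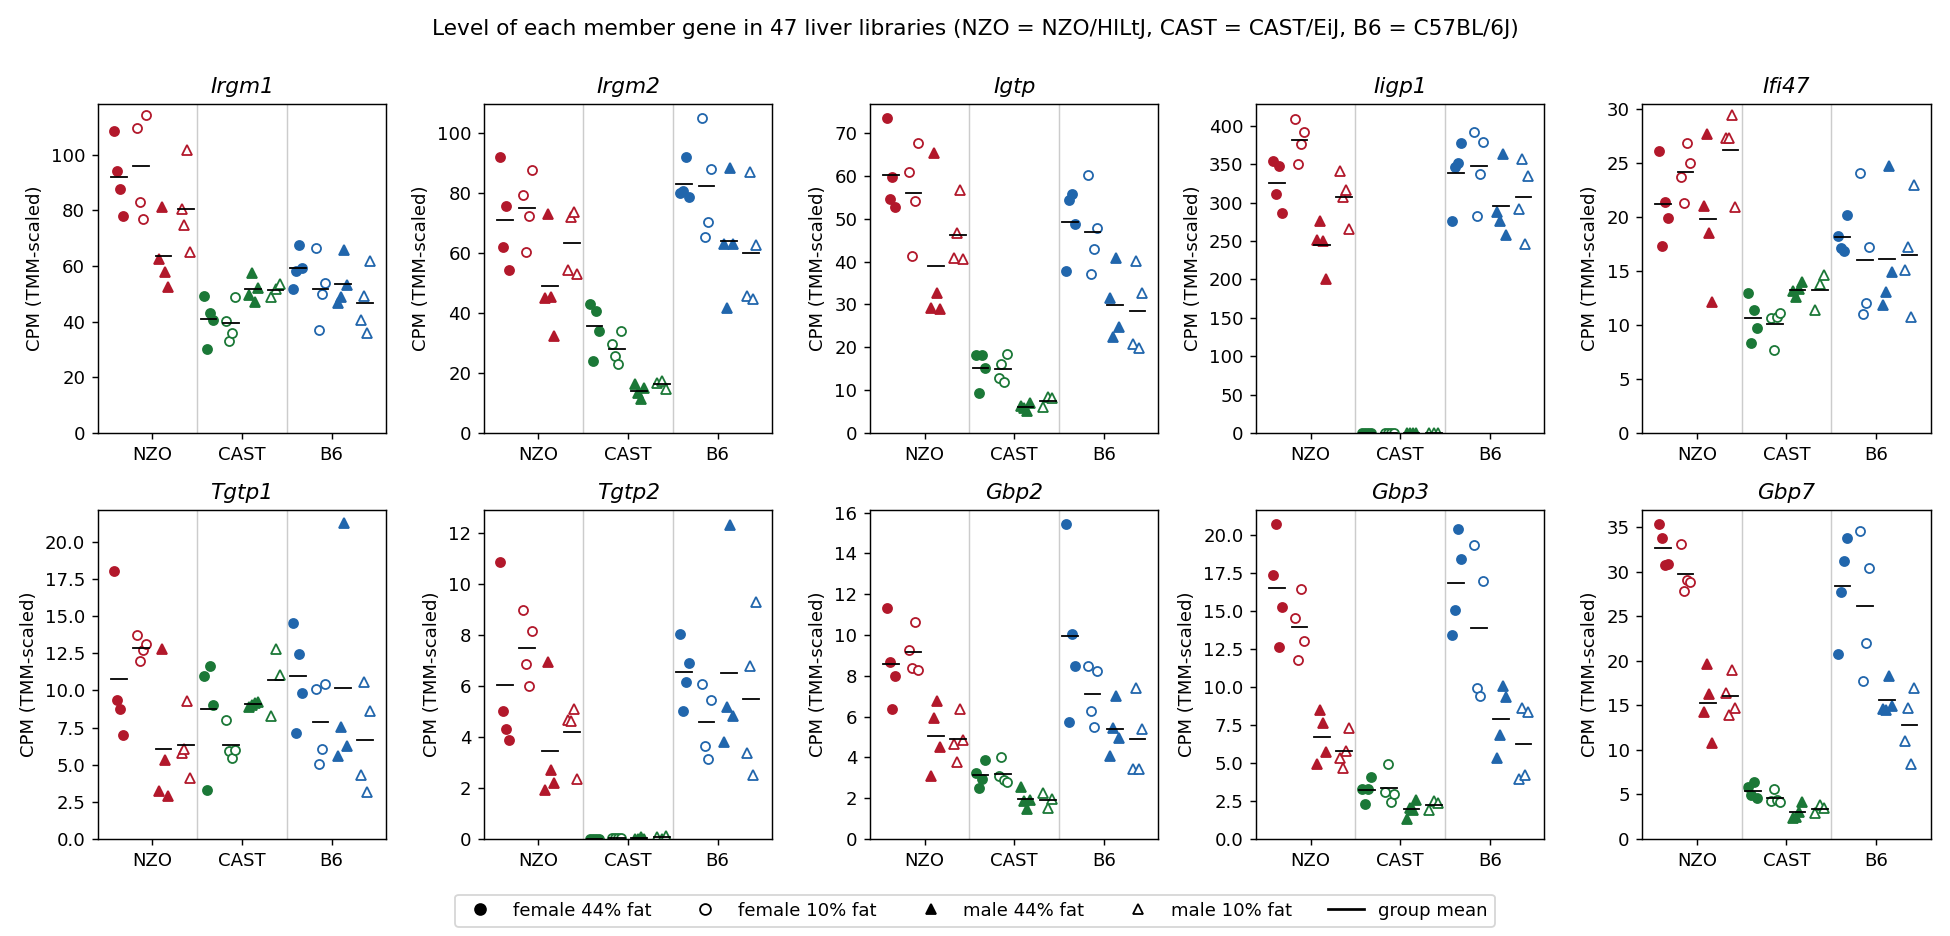
CPM of each of the 10 genes (vertical axes, linear, from 0) in every library, by strain along the horizontal axis; circles are females, triangles males, filled symbols 44% fat, open symbols 10% fat, and bars group means. Iigp1 and Tgtp2 lie at the floor in all 15 CAST/EiJ libraries, Gbp3 and Gbp7 are higher in females than in males of NZO/HlLtJ with no overlap, and filled and open symbols of a sex and strain largely intermingle.

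Most of these genes were lower in CAST/EiJ. In CAST/EiJ livers 9 of the 10 were lower than in C57BL/6J livers and none was higher, at an adjusted p under 0.05 in edgeR's quasi-likelihood test. Over all genes the test called 67.9%, 35.3% lower. The median log2 fold change of the 10 members was -1.81, and -1.56 over the 8 members other than Iigp1 and Tgtp2. Over all genes tested it was -0.02. For 4 members, Igtp, Iigp1, Tgtp2 and Gbp7, every CAST/EiJ library lay below every C57BL/6J library, which held for 6.08% of all genes. Iigp1 and Tgtp2 are in both counts but passed the filter through the strains in which they are high, so they add no support. Of the other 8, all but Tgtp1 were called lower, and Igtp and Gbp7 did not overlap.

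Iigp1, an effector that coats the vacuole and the only member on chromosome 18, was the extreme. In 15 CAST/EiJ libraries it had 27 counts in all and none in 8 libraries, from 0 to a highest value of 0.225 CPM. In C57BL/6J it had a lowest value of 246, a median of 336 and a highest of 392 CPM. Pooled over CAST/EiJ its level was 0.0477 CPM (exact Poisson 95% interval 0.0314 to 0.0694, counting error only). The C57BL/6J mean was 6764-fold that level, with 4649 to 10260 from the interval. The adjusted p was 1.41e-39. A fitted fold change depends at such counts on the prior count and is not given. Whether Iigp1 reads of CAST/EiJ were lost in assignment to the reference or absent from the libraries was not tested.

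The counts of the effectors Tgtp1 and Tgtp2 split apart. Tgtp2 had 14 counts in the 15 CAST/EiJ libraries, from 0 to 0.0991 CPM, against a lowest value of 2.51, a median of 5.31 and a highest of 12.3 CPM in C57BL/6J (adjusted p = 2.25e-19). Tgtp1 ranged from 3.3 over a median of 9 to 12.8 CPM in CAST/EiJ and from 3.14 over a median of 8.08 to 21.3 CPM in C57BL/6J, and the ranges overlapped. The log2 fold change was -0.03 ± 0.22 (SE), with an adjusted p of 0.909 and a 95% interval of -0.47 to 0.41. Tgtp2 took at most 1.06% of the pair's counts in a CAST/EiJ library, against 33.2% to 51.9% in C57BL/6J. Because the pair shares most of its 100-base stretches, their counts were also summed. The sum averaged 8.6 ± 2.57 CPM in CAST/EiJ (SD, n = 15) and 14.7 ± 6.87 CPM in C57BL/6J (SD, n = 16). Its CAST/EiJ over C57BL/6J log2 fold change was -0.76 (adjusted p = 0.00203). Whether Tgtp2 reads of CAST/EiJ were given to Tgtp1, lost in assignment or absent from the libraries was not tested.

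Ifi47, the remaining effector, fell less. It had a lowest value of 7.71, a median of 11.4 and a highest of 14.6 CPM in CAST/EiJ, against 10.8, 17 and 24.7 CPM in C57BL/6J. The ranges overlapped, and the log2 fold change was -0.51 ± 0.12 (SE; adjusted p = 0.000172). Its difference was called within females on 44% fat (-0.77, adjusted p = 0.00501) and on 10% fat (-0.68, adjusted p = 0.014). Within males it was not (-0.28 on 44% fat and -0.31 on 10% fat, adjusted p = 0.315 and 0.322). Of all genes, 45.4% were called in females on 44% fat, 44% in females on 10% fat, 46.6% in males on 44% fat and 41.7% in males on 10% fat.

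Among the regulators, Irgm2 and Igtp, the overlapping pair, were lower in CAST/EiJ. Igtp ranged from 5.01 over a median of 9.39 to 18.4 CPM in CAST/EiJ and from 19.9 over a median of 38.9 to 60.2 CPM in C57BL/6J. The lowest C57BL/6J library lay above the highest CAST/EiJ library. Igtp's log2 fold change was -1.90 ± 0.13 (SE; adjusted p = 7.86e-16). Irgm2 had a median of 23 CPM in CAST/EiJ, against 74.6 CPM in C57BL/6J, with ranges of 11.4 to 43.1 and 41.7 to 105 CPM that overlapped slightly. Its log2 fold change was -1.71 ± 0.12 (SE; adjusted p = 9.69e-16). Irgm1, which also acts in autophagy and mitochondrial upkeep, differed little. Its median was 48.7 CPM in CAST/EiJ, against 52.3 CPM in C57BL/6J, with a log2 fold change of -0.21 ± 0.09 (SE) and an adjusted p of 0.0326. That call was lost in 7 of 47 fits that left out a single library, at an adjusted p of up to 0.0754 without replicate 4 of the C57BL/6J males on 10% fat. The other 6 were replicate 3 of C57BL/6J males and of females on 44% fat, replicate 1 of C57BL/6J females on 10% fat, replicate 1 of CAST/EiJ males on 10% fat, and replicate 2 of CAST/EiJ females on each diet.

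The 3 GBPs were all lower in CAST/EiJ. Gbp7 ranged from 2.36 over a median of 4.13 to 6.39 CPM in CAST/EiJ, against 8.41 over 18 to 34.5 CPM in C57BL/6J, without overlap. The log2 fold change was -2.30 ± 0.11 (SE; adjusted p = 6.42e-22). Gbp3, with a median of 2.51 CPM in CAST/EiJ and 9.66 CPM in C57BL/6J, had a log2 fold change of -1.98 ± 0.14 (SE; adjusted p = 9.29e-16). Gbp2, with medians of 2.52 and 5.99 CPM in CAST/EiJ and C57BL/6J, had one of -1.41 ± 0.13 (SE; adjusted p = 2.89e-12). Gbp2 and Gbp3 overlapped between the strains at the edges of their ranges.

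**Figure D2:**
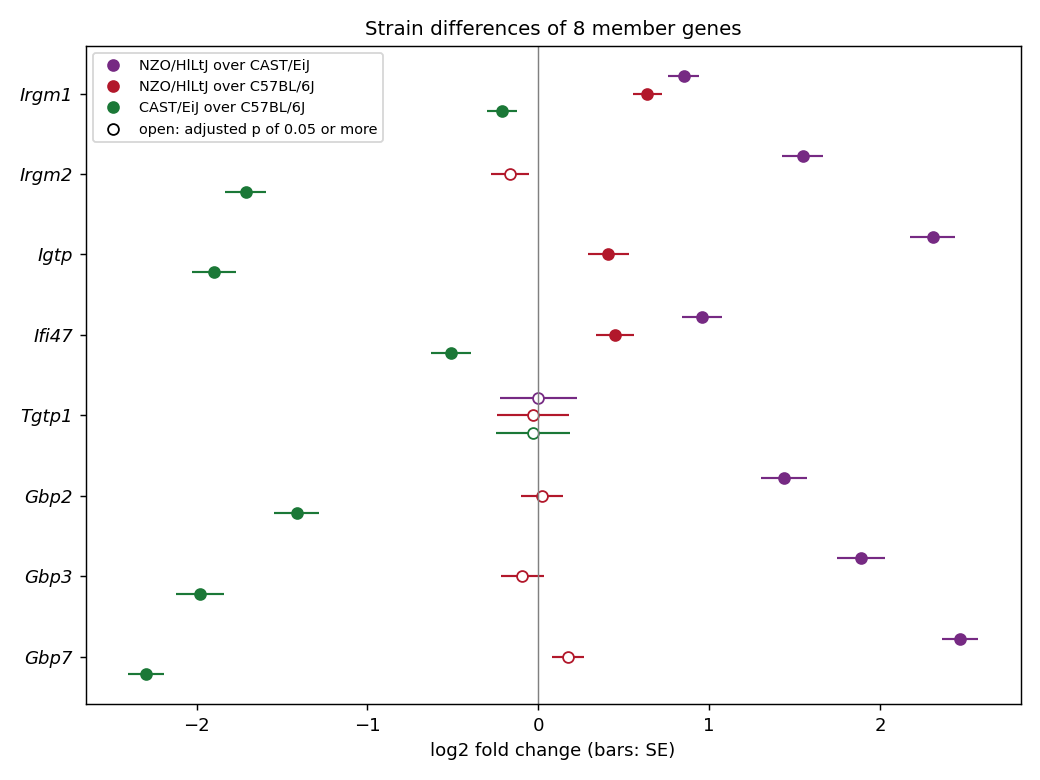
Log2 fold change (horizontal axis, with SE as bars) of 8 members in the 3 strain comparisons; Iigp1 and Tgtp2 are left out, since their CAST/EiJ counts are near 0. Open points have an adjusted p of 0.05 or more: Tgtp1 in all 3 comparisons, and Irgm2 and the 3 GBPs for NZO/HlLtJ over C57BL/6J.

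NZO/HlLtJ and C57BL/6J were much closer. Of the 10 genes 3 were called, all higher in NZO/HlLtJ, where 49.1% of all genes were called and 25.5% were higher. Irgm1 ranged from 52.3 over a median of 80.9 to 114 CPM in NZO/HlLtJ, against 35.8 over 52.3 to 67.6 CPM in C57BL/6J. Its fitted log2 fold change was 0.64 ± 0.09 (SE; adjusted p = 5.96e-08). Ifi47 was higher by 0.45 ± 0.11 (SE; adjusted p = 0.000966) and Igtp by 0.41 ± 0.12 (SE; adjusted p = 0.00459). None of the 3 separated the strains without overlap, as 2.08% of all genes did in this direction.

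Within groups of a sex and diet, Irgm1 was called higher in NZO/HlLtJ in females on 44% fat (log2 fold change 0.64) and on 10% fat (0.89) and in males on 10% fat (0.78), but not in males on 44% fat (0.25, adjusted p = 0.346). Igtp and Ifi47 were called within males on 10% fat only among these 4 groups (0.71 and 0.67). Of all genes, 23% were called in females on 44% fat, 20% in females on 10% fat, 21.8% in males on 44% fat and 23.3% in males on 10% fat. For the other 7 members the interval of the NZO/HlLtJ over C57BL/6J difference included 0. It ran from -0.21 to 0.12 for Iigp1, from -0.02 to 0.36 for Gbp7 and from -0.58 to 0.23 for Tgtp2, the widest but for Tgtp1's -0.46 to 0.40.

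Set against CAST/EiJ, NZO/HlLtJ had 9 of 10 members higher, where 68.1% of all genes were called and 35.3% were higher. Gbp7 had the largest fitted log2 fold change after Iigp1 and Tgtp2, 2.47 ± 0.11 (SE; adjusted p = 7.24e-23), followed by Igtp with 2.31 ± 0.13 (SE; adjusted p = 3.37e-18). Irgm1 was higher by 0.85 ± 0.09 (SE; adjusted p = 5.43e-11). Tgtp1 differed by 0.00 ± 0.23 (SE; adjusted p of 1). The summed pair was higher by 0.67 (adjusted p = 0.00608). Igtp, Iigp1, Tgtp2 and Gbp7 separated the strains without overlap, as did 6.23% of all genes in this direction. Iigp1 and Tgtp2 add no support here either, since they passed the filter through the strains in which they are high. Apart from them, all but Tgtp1 were called higher, and Igtp and Gbp7 did not overlap. Each of the 3 strain comparisons shares libraries with the other two.

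The libraries' identifiers fall into 3 runs of consecutive numbers, of 16, 16 and 15 libraries, whose meaning the labels do not give. Within runs 1, 2 and 3, the log2 fold change of CAST/EiJ over C57BL/6J was -2.36, -2.13 and -2.42 for Gbp7, -1.85, -1.91 and -1.84 for Igtp, and -1.53, -1.73 and -1.78 for Irgm2. It was -0.48, -0.42 and -0.62 for Ifi47 and -0.11, -0.25 and -0.25 for Irgm1, whose call did not hold within any run. Only run 1 held all 4 NZO/HlLtJ groups. There Irgm1 was 0.76 higher in NZO/HlLtJ than in C57BL/6J (adjusted p = 0.000643), Ifi47 0.51 higher (adjusted p = 0.0139) and Igtp 0.55 (adjusted p = 0.189). Gbp7 was called in run 1 alone, 0.31 higher in NZO/HlLtJ (adjusted p = 0.0499), so the 3 members called there were not the same 3.

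Most other genes of the family were also lower in CAST/EiJ. Of 18 other IRG and GBP genes tested, 15 were lower and 1 higher in CAST/EiJ than in C57BL/6J, with a median log2 fold change of -2.56. This compares with 35.3% lower and 32.6% higher over all genes. The symbol Gbp6 stands for more than 1 gene entry, and each is counted among the 18 here and below. Gbp10 averaged 0.0263 CPM in CAST/EiJ and 18.8 CPM in C57BL/6J. F830016B08Rik and Gm4951, both IRG genes, averaged 0.0276 and 2.57 CPM in CAST/EiJ and 49.8 and 104 CPM in C57BL/6J. Unlike Iigp1, both were also low in NZO/HlLtJ, with 0.701 and 4.88 CPM. Genes at the floor in CAST/EiJ, such as Gbp10 and F830016B08Rik, passed the filter through other strains, so they add no support. The count and the median above include them. Whether their CAST/EiJ reads were lost in assignment to the reference was not tested. In NZO/HlLtJ over C57BL/6J 4 of the 18 were higher and 6 lower, against 25.5% and 23.6% of all genes.

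Among 13 genes of interferon gamma signalling, 8 were lower and 2 higher in CAST/EiJ than in C57BL/6J, against 35.3% and 32.6% of all genes. The receptor chain Ifngr2 was lower (log2 fold change -1.12 ± 0.09 SE; adjusted p = 1.25e-14). The phosphatase gene Ptpn2 was higher by 0.44 (adjusted p = 7.11e-09) and Irf8, a factor of myeloid cells, had -0.67 (adjusted p = 1.62e-06). Of 23 further interferon gamma targets 14 were lower and 2 higher. Nlrc5, the activator of MHC class I genes, had -1.87 and Cd274, the ligand of PD-1, -2.19. Of 32 genes of the type I interferon response 29 were lower and 2 higher, with a median of -1.53. Irf7, its amplifying factor, had -3.80 and the antiviral GTPase gene Mx2 3.03. Ifng is not analysed here. In NZO/HlLtJ over C57BL/6J these 3 lists had 2 higher and 3 lower, 6 higher and 4 lower, and 10 higher and 8 lower. Of all genes, 25.5% were higher and 23.6% lower there.

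Genes of the ATG conjugation system and vacuole targeting, on which IRG and GBP loading depends, were also counted. Among 13 such genes 7 were lower and 3 higher in CAST/EiJ than in C57BL/6J, with a median log2 fold change of -0.13. This compares with 35.3% lower and 32.6% higher over all genes. In NZO/HlLtJ over C57BL/6J 3 were higher and 3 lower, against 25.5% and 23.6% of all genes.

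Markers of immune cells differed between the strains too. In CAST/EiJ against C57BL/6J, 7 of 8 T and NK cell genes, 4 of 4 B cell genes and 7 of 7 Kupffer cell genes were lower. All 5 of 5 neutrophil genes were higher. Of all genes, 35.3% were lower and 32.6% higher. The 9 T and NK cell genes summed to 0.337 to 1.01 CPM in CAST/EiJ, against 1.69 to 4.45 CPM in C57BL/6J. Cd3e, Cd3g, Nkg7 and Ccl5 were each at 0 in at least one CAST/EiJ library. Kupffer cell genes summed to 98.9 to 314 CPM in CAST/EiJ and 208 to 390 CPM in C57BL/6J, and none was at 0. In NZO/HlLtJ the T and NK sum was 0.968 to 4.67 CPM and the Kupffer sum 162 to 408 CPM. Against CAST/EiJ, 7 of 8 T and NK, 4 of 4 B and 5 of 7 Kupffer cell genes were higher in NZO/HlLtJ. For all genes that share was 35.3%. The part of these cells in the members' strain differences was not tested. In such bulk libraries, fewer cells of a type and less RNA per cell cannot be told apart.

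No member passed the test for diet. None of the 10 was called for 44% fat over 10% fat in NZO/HlLtJ, in CAST/EiJ or in C57BL/6J, where 5.64%, 0.895% and 0.991% of all genes were called by edgeR. At an unadjusted p under 0.05 there was 1, 1 and 0. DESeq2 and limma each called Iigp1 in NZO/HlLtJ and none in the other strains. Within a single sex and strain no member was called either. All genes were called there at 0.486% in females and 2.68% in males of NZO/HlLtJ, 0.198% and 0.012% in females and males of CAST/EiJ, and 0.102% and 0.042% in females and males of C57BL/6J.

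In NZO/HlLtJ, Iigp1 averaged 285 ± 52.1 CPM on 44% fat and 345 ± 47.5 CPM on 10% fat (SD, n = 8 each). Its log2 fold change was -0.28 ± 0.12 (SE), with a 95% interval of -0.52 to -0.05 and an adjusted p of 0.155. The adjusted p was 0.0339 in DESeq2, 0.0327 in limma on variance-stabilized values and 0.0296 with only NZO/HlLtJ in the fit. Irgm1 averaged 77.7 ± 19.2 CPM on 44% fat and 88.2 ± 17.9 CPM on 10% fat (SD, n = 8 each), with an interval of -0.45 to 0.05. Ifi47 averaged 20.5 ± 4.91 CPM on 44% fat and 25.2 ± 3.06 CPM on 10% fat (SD, n = 8 each), with one of -0.62 to 0.02.

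In C57BL/6J the largest diet difference was that of Tgtp1, with 10.6 ± 5.33 CPM on 44% fat and 7.28 ± 3 CPM on 10% fat (SD, n = 8 each). The log2 fold change was 0.54 ± 0.30 (SE), with an interval of -0.06 to 1.15 and an adjusted p of 0.465. In CAST/EiJ, leaving out Iigp1 and Tgtp2, the fold changes lay between -0.14 for Igtp and 0.11 for Tgtp1. Of the 27 Iigp1 counts in CAST/EiJ, 22 came from the 4 males on 44% fat, with 1, 5, 6 and 10 counts, and none from the 3 males on 10% fat. The CAST/EiJ females had 3 counts on 44% fat, all in replicate 1, and 2 on 10% fat. The adjusted p for diet in CAST/EiJ was 0.102 for Iigp1, and 0.0937 within males. The highest of these levels, 0.225 CPM, compares with at least 201 CPM in every NZO/HlLtJ library and 246 CPM in every C57BL/6J library.

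**Figure D3:**
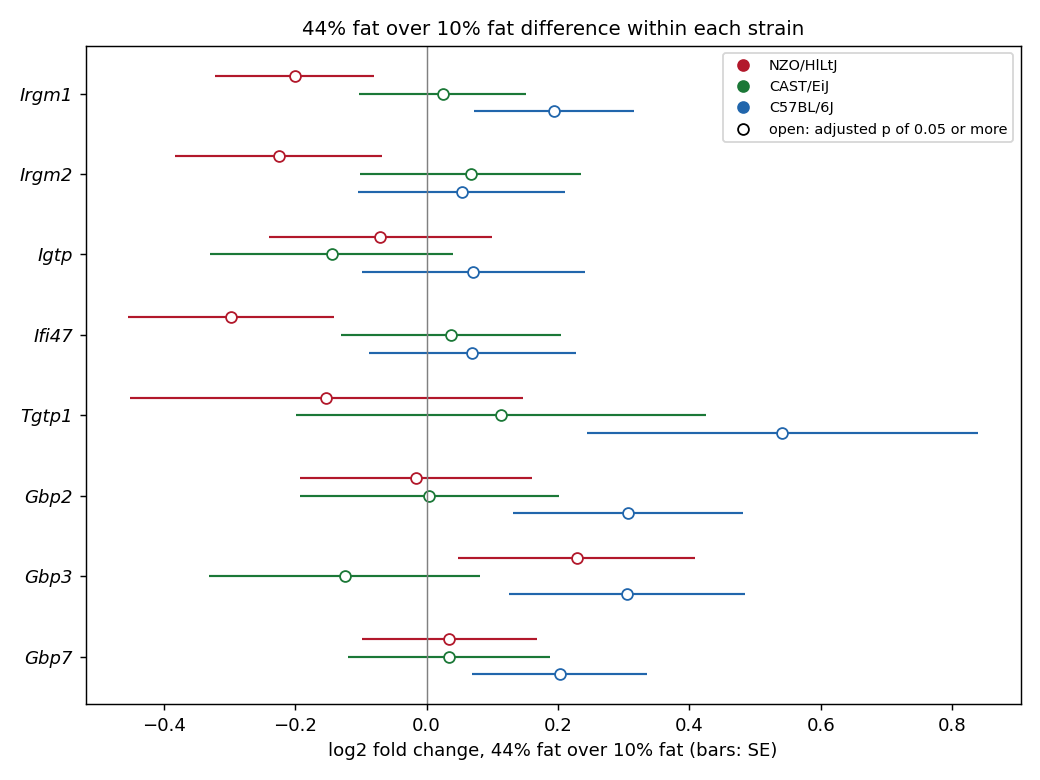
Log2 fold change of 44% fat over 10% fat (horizontal axis, with SE as bars) for 8 members within NZO/HlLtJ, CAST/EiJ and C57BL/6J. All points are open, since none reached an adjusted p under 0.05.

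The title of the study asks about interactions of genotype with diet. A joint test of whether the diet effect differed among strains called none of the 10 members and 0.048% of all genes. The smallest unadjusted p was 0.00247, for Iigp1 (adjusted p = 0.19), and no other member was under 0.05. That value rests in part on CAST/EiJ, where Iigp1 had 27 counts in all, too few for a fold change between diets. A joint test of whether the diet effect differed between sexes called none, and 0.108% of all genes. No member had an unadjusted p under 0.05 there. Of NZO/HlLtJ, identifier run 2 held only females on 10% fat and males on 44% fat. Run 3 held only females on 44% fat and males on 10% fat. Outside run 1, this NZO/HlLtJ contrast, and diet within each NZO/HlLtJ sex, cannot be told apart from a difference between runs. DESeq2 and limma called no member in either joint test. None of 18 other IRG and GBP genes, 13 signalling genes or 23 further targets was called for diet in any strain. Of the type I interferon genes, 1 of 32 was lower on 44% fat in NZO/HlLtJ. Of the ATG and vacuole genes, 2 of 13 were higher there.

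Sex differences were called for the GBPs in every strain. In all 3 strains Gbp2, Gbp3 and Gbp7 were higher in females than in males. In NZO/HlLtJ 7 of the 10 members were higher in females and none lower, where 17.2% of all genes were called and 9.31% were higher. Only 3 members were called without replicate 1 of the NZO/HlLtJ females on 44% fat, and likewise without replicate 4 of the males on 44% or on 10% fat. In CAST/EiJ 5 were higher and 1 lower, where 30.3% of all genes were called, 14.2% higher and 16.1% lower. In C57BL/6J 4 were higher and none lower, where 16.8% of all genes were called and 8.7% were higher.

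Gbp3 in NZO/HlLtJ ranged from 11.8 over a median of 14.9 to 20.7 CPM in females, against 4.69 over 5.76 to 8.51 CPM in males. No male reached the lowest female. The log2 fold change of females over males was 1.28 ± 0.18 (SE; adjusted p = 1.5e-06). In CAST/EiJ it was 0.64 ± 0.21 (SE; adjusted p = 0.016), with medians of 3.16 CPM in females and 2.02 CPM in males. That call was lost without replicate 2 of the CAST/EiJ females on 10% fat (adjusted p = 0.0592). In C57BL/6J it was 1.12 ± 0.18 (SE; adjusted p = 1.22e-05), with medians of 16 CPM in females and 7.6 CPM in males.

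Gbp7 in NZO/HlLtJ ranged from 27.8 over a median of 30.8 to 35.3 CPM in females, against 10.8 over 15.5 to 19.6 CPM in males, again without overlap. Groups without overlap in this direction made up 1.59% of all genes. Gbp7's log2 fold change was 1.00 ± 0.13 in NZO/HlLtJ (SE; adjusted p = 4.7e-07), 0.64 ± 0.15 in CAST/EiJ (SE; adjusted p = 0.00126) and 0.95 ± 0.13 in C57BL/6J (SE; adjusted p = 1.01e-06). Gbp2 was higher in females by 0.82, 0.72 and 0.71 in NZO/HlLtJ, CAST/EiJ and C57BL/6J. The joint test of a sex effect that differs among strains called none of the 3, with adjusted p of 0.951 for Gbp2, 0.237 for Gbp3 and 0.428 for Gbp7. Limma on variance-stabilized values called Gbp3 (adjusted p = 0.0281).

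Among the regulators, Irgm2 and Igtp were called for sex in some strains and Irgm1 in both directions. Irgm2 and Igtp were higher in females in CAST/EiJ without overlap, as were 3.86% of all genes. Irgm2 ranged from 23 over a median of 31.9 to 43.1 CPM in CAST/EiJ females, against 11.4 over 15.1 to 17.2 CPM in CAST/EiJ males (log2 fold change 1.07 ± 0.17 SE; adjusted p = 5.99e-06). Igtp ranged from 9.39 over 15.6 to 18.4 CPM in CAST/EiJ females, against 5.01 over 6.24 to 8.39 CPM in CAST/EiJ males (1.17 ± 0.19 SE; adjusted p = 7.35e-06). In C57BL/6J Igtp was higher in females by 0.72 ± 0.17 (SE; adjusted p = 0.00225), and Irgm2's 0.41 ± 0.16 (SE) missed the threshold (adjusted p = 0.0674). In NZO/HlLtJ Irgm2's 0.39 ± 0.16 and Igtp's 0.45 ± 0.17 (SE) missed it as well (adjusted p = 0.0843 and 0.0606). These misses lay near the threshold and turned with the processing. Igtp in NZO/HlLtJ was called by DESeq2 (adjusted p = 0.0412), by limma (0.0336), with the stricter expression filter (0.0479) and without the libraries with acinar RNA (0.0386). It was also called without any one of replicate 2 of the NZO/HlLtJ females on 10% fat, replicate 2 of the NZO/HlLtJ males on 44% fat, replicate 3 of those on 10% fat and replicate 2 of the CAST/EiJ females on 44% fat, at an adjusted p down to 0.00346. Irgm2 in C57BL/6J was called by DESeq2 (adjusted p = 0.0438), by limma (0.0383) and with the stricter filter (0.0488). Without replicate 2 of the C57BL/6J males or females on 10% fat, replicate 3 of the C57BL/6J males on 44% fat or replicate 2 of the NZO/HlLtJ males on 44% fat it was called too, at an adjusted p down to 0.0139. Without that last library Irgm2 was also called in NZO/HlLtJ (adjusted p = 0.0153).

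Irgm1 went the other way in CAST/EiJ. It ranged from 30 over a median of 40.5 to 49.2 CPM in CAST/EiJ females, against 47.1 over 51.9 to 57.4 CPM in CAST/EiJ males. Its log2 fold change was -0.36 ± 0.13 (SE; adjusted p = 0.0293). That call was lost without the libraries with acinar RNA (adjusted p = 0.0774), and in 6 of 47 fits without a single library. Those were replicate 2 of each CAST/EiJ group and replicate 3 of the females and males on 10% fat, with an adjusted p of up to 0.0766. In NZO/HlLtJ Irgm1 was higher in females, with a median of 90.8 CPM, against 69.9 CPM in males (0.39 ± 0.12 SE; adjusted p = 0.0195). It was lost in 4 such fits, at up to 0.0538, without replicate 4 of the NZO/HlLtJ males on either diet or of the females on 10% fat, or without replicate 1 of the females on 44% fat.

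The joint test of a sex effect that differs among strains called 1 member, Irgm1 (adjusted p = 0.00699), and 13.6% of all genes. Irgm2 was called as well by DESeq2 (adjusted p = 0.0215), with RLE factors (0.0487), with the stricter filter (0.0459) and without the libraries with acinar RNA (0.0357), where Igtp was called too (0.0446). The test called 3 without NZO/HlLtJ male 44% fat replicate 2. It called 2 without any one of replicate 1 of the NZO/HlLtJ females and replicate 4 of the NZO/HlLtJ males on 44% fat, replicate 2 of the CAST/EiJ females on 44% fat, replicates 2 and 3 of the C57BL/6J males on 44% fat, replicates 1 and 3 of those on 10% fat, and replicate 1 of the C57BL/6J females on 10% fat. Between NZO/HlLtJ and CAST/EiJ, the sex effects (females over males) differed by 0.75 ± 0.18 for Irgm1 (SE; adjusted p = 0.00269), by -0.67 ± 0.23 for Irgm2 (SE; adjusted p = 0.0449) and by 1.33 ± 0.43 for Tgtp1 (SE; adjusted p = 0.0339), where 13.6% of all genes were called. No member was called between NZO/HlLtJ and C57BL/6J, nor between CAST/EiJ and C57BL/6J, where 0.571% and 10.5% of all genes were. The smallest adjusted p there was 0.441 for NZO/HlLtJ and 0.0605 for CAST/EiJ.

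Effectors were called for sex in NZO/HlLtJ and in no other strain by edgeR's test on all libraries. In CAST/EiJ, Iigp1 and Tgtp2 had 27 and 14 counts in all, too few for a fold change between sexes. For these genes the absence of a call there says nothing, and a joint test includes these floor values. The joint test of edgeR called a difference among strains for no effector. In that test limma called Iigp1 (adjusted p = 0.0121) and Tgtp1 (0.04), DESeq2 called Tgtp2 (0.0366), and edgeR called Tgtp1 without replicate 2 of the NZO/HlLtJ males on 44% fat (0.0105), where it called Tgtp2 too (0.0238), or without replicate 3 of the C57BL/6J males on 44% fat (0.042). Between pairs of strains the difference of Tgtp1 alone among effectors, above, was called. Iigp1 in NZO/HlLtJ had a median of 353 CPM in females, against 271 CPM in males (log2 fold change 0.36 ± 0.12 SE; adjusted p = 0.0248). Tgtp1 in NZO/HlLtJ had medians of 12.3 CPM in females and 5.56 CPM in males (0.92 ± 0.30 SE; adjusted p = 0.0287). Tgtp2 in NZO/HlLtJ had medians of 6.44 CPM in females and 3.67 CPM in males (0.82 ± 0.28 SE; adjusted p = 0.0425). The summed pair was higher by 0.88 in NZO/HlLtJ females (adjusted p = 0.0308). The ranges of each overlapped between the sexes.

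These 3 calls rested on few mice. Of the 16 fits that left out a single NZO/HlLtJ library, 3 ended that of Iigp1, 5 that of Tgtp1 and 9 that of Tgtp2. The adjusted p rose to at most 0.0679, 0.0967 and 0.157. Leaving out a library of another strain ended none of these calls. Replicate 1 of the females on 44% fat and replicate 4 of the males on each diet ended all 3. Replicate 1 of the males on each diet also ended those of Tgtp1 and Tgtp2. Replicates 1 and 4 of the females on 10% fat, replicate 2 of the males on 10% fat and replicate 3 of the males on 44% fat ended that of Tgtp2 alone. It also ended with no expression filter and with only NZO/HlLtJ in the fit, at an adjusted p of up to 0.0631. Ifi47 had no call in NZO/HlLtJ (-0.01, adjusted p = 0.98), in CAST/EiJ (-0.36, adjusted p = 0.0981) or in C57BL/6J (0.07, adjusted p = 0.836). It was called lower in CAST/EiJ females with only CAST/EiJ in the fit (-0.36, adjusted p = 0.0155) and in run 2 alone (-0.62, adjusted p = 0.0334).

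**Figure D4:**
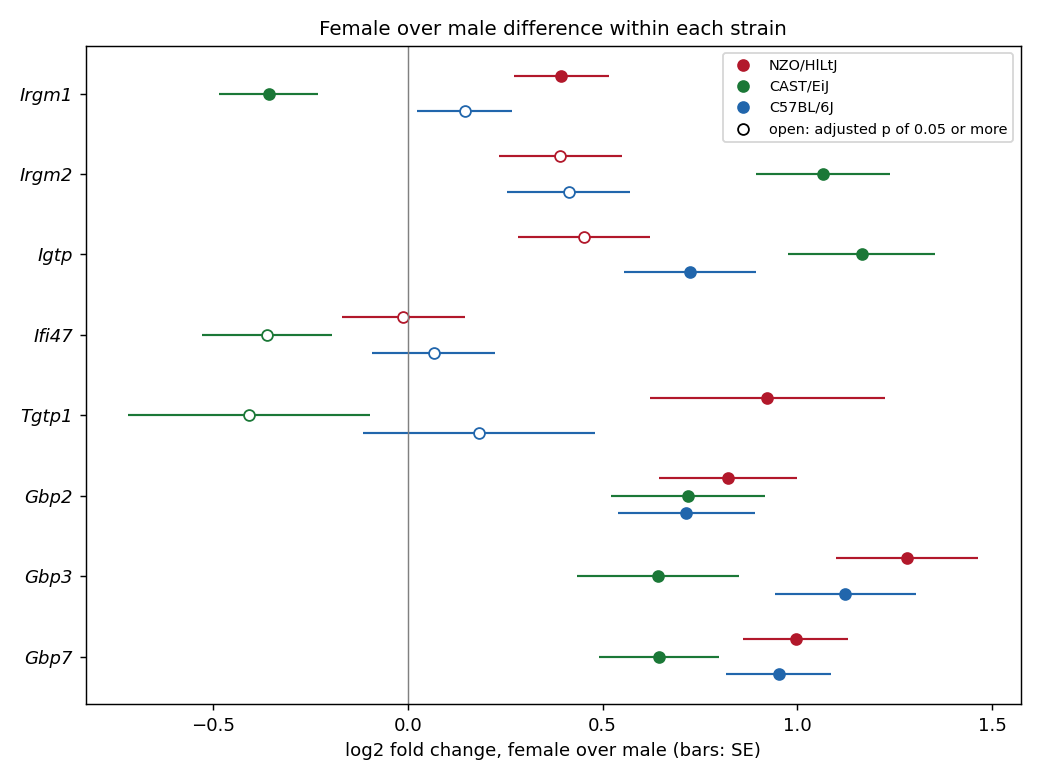
Log2 fold change of females over males (horizontal axis, with SE as bars) for 8 members within NZO/HlLtJ, CAST/EiJ and C57BL/6J; filled points have an adjusted p under 0.05. The 3 GBPs are filled and right of 0 in every strain, while Irgm1 lies left of 0 in CAST/EiJ and right of it in NZO/HlLtJ.

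Within identifier runs 1, 2 and 3, the log2 fold change of females over males for Gbp7 was 0.93, 0.80 and 0.24 in CAST/EiJ and 1.08, 0.73 and 1.15 in C57BL/6J. For Igtp it was 1.32, 1.15 and 1.03 in CAST/EiJ and 0.90, 0.65 and 0.72 in C57BL/6J. For Gbp2 it was 0.41, 1.06 and 0.79 in CAST/EiJ and 1.62, 0.10 and 0.71 in C57BL/6J. Irgm1 in CAST/EiJ was at -0.14, -0.58 and -0.33. In run 1, the only one with all NZO/HlLtJ groups, Gbp3, Gbp7 and Gbp2 were 1.44, 1.02 and 1.10 higher in NZO/HlLtJ females.

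Interferon genes and Kupffer cell markers also differed between the sexes, the interferon genes in both directions in CAST/EiJ. Of all genes, 9.31% were called higher and 7.94% lower in NZO/HlLtJ females. In CAST/EiJ females these shares were 14.2% and 16.1%, and in C57BL/6J females 8.7% and 8.1%. Of 32 genes of the type I interferon response 16 were higher in NZO/HlLtJ females, 10 higher and 2 lower in CAST/EiJ females, and 18 higher in C57BL/6J females. Zbp1, a nucleic acid sensor, was higher in females by a log2 fold change of 1.37 in NZO/HlLtJ and 1.34 in C57BL/6J. Of 18 other IRG and GBP genes, 5 were higher and 1 lower in NZO/HlLtJ females, 1 higher and 2 lower in CAST/EiJ females and 1 higher in C57BL/6J females. Gbp8 was higher by 0.76 in NZO/HlLtJ females and by 0.68 in CAST/EiJ females. Of 23 further interferon gamma targets, 8 were higher in NZO/HlLtJ females, 6 higher and 5 lower in CAST/EiJ females and 5 higher in C57BL/6J females. The immunoproteasome and peptide transport genes Psmb8, Psmb9 and Tap1 were lower in CAST/EiJ females, with -0.61, -0.87 and -0.83.

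Of 7 Kupffer cell genes 7, 7 and 3 were higher in females of NZO/HlLtJ, CAST/EiJ and C57BL/6J. Their sum was 251 to 408 CPM in females, against 162 to 255 CPM in males of NZO/HlLtJ. It was 158 to 314 CPM in females, against 98.9 to 170 CPM in males of CAST/EiJ, and 289 to 390 CPM in females, against 208 to 363 CPM in males of C57BL/6J. T and NK cell genes were called in females of C57BL/6J for 1 of 8 and in the other strains for none. B cell genes were higher in females for 3 of 4 in NZO/HlLtJ, 1 in CAST/EiJ and none in C57BL/6J, and neutrophil genes for 3, 3 and none of 5. Hepatocyte genes summed to 77860 to 112900 CPM in CAST/EiJ females, against 43350 to 69890 CPM in CAST/EiJ males, and 2 of 5 were called higher in those females. The part of these cells in the members' sex differences was not tested.

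The members also varied together between mice of the same group. After group means were removed, Pearson's r over the 47 libraries was 0.05 to 0.88 between pairs of members, with a median of 0.54. Iigp1 and Tgtp2 each had no counts in 8 of the 15 CAST/EiJ libraries, so their r rests there on values near the floor. Irgm2 and Igtp, the pair with the highest r, share 162 exon bases. Tgtp2 is a near-identical copy of Tgtp1. How far these limits shape the order of the members was not tested. Within them, Tgtp1 followed the mean of the other 9, Tgtp2 among them, most closely (r = 0.896) and Iigp1 least (r = 0.34). The 8 genes most like the members by this measure included Gbp6 (r = 0.8), Samhd1 (0.791), Tap1 (0.785), Parp14 (0.783), Gbp4 (0.77), Zc3hav1 (0.749) and Gbp8 (0.749), among 10365 genes with a median r of 0.0037. They share libraries and depth with the members, so this is a description. By Spearman's rho, or without the 2 libraries with the highest members, 5 of the 8 were again among the first 8.

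In some mice all 10 members lay on one side of their group mean. All 10 members were above their group mean in NZO/HlLtJ male 44% fat replicate 2, by 0.62 log2 CPM on average, and in C57BL/6J male 44% fat replicate 3, by 0.57. All 10 were below it in C57BL/6J male 10% fat replicate 3, by -0.53 on average. None was above it in CAST/EiJ female 44% fat replicate 2, at -0.44 on average. Tgtp2 had 0 counts in every library of that group, so it could not lie below. High and low mice occurred on both diets.

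**Figure D5:**
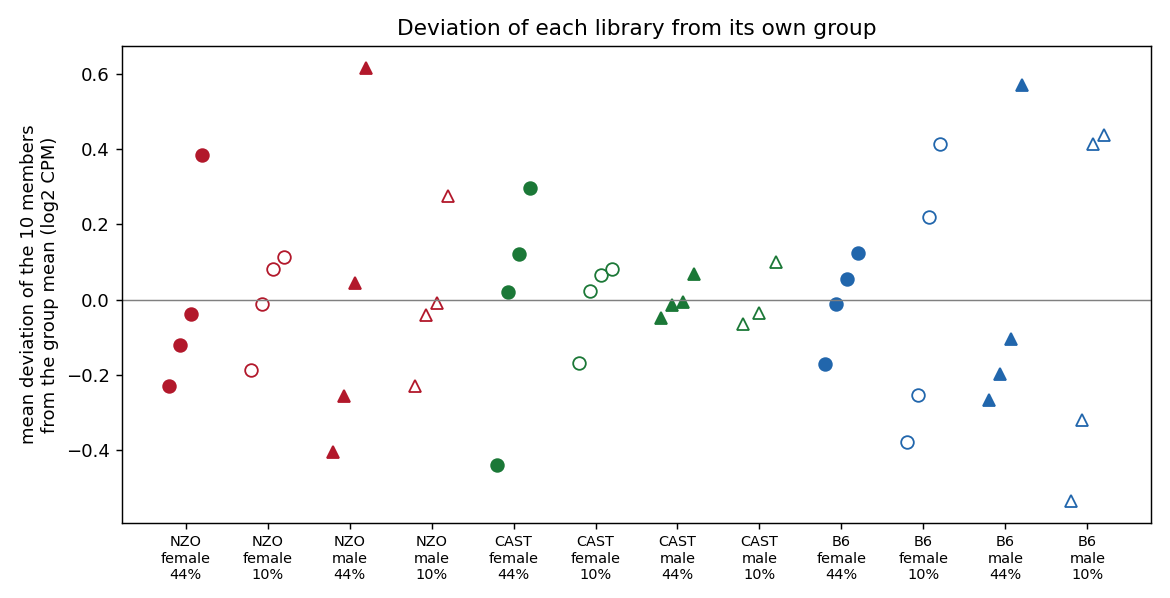
Mean deviation of the 10 members from their group mean (vertical axis, log2 CPM) in each of the 47 libraries, by strain (NZO, CAST and B6 for NZO/HlLtJ, CAST/EiJ and C57BL/6J), sex (circles female, triangles male) and diet (filled 44% fat, open 10% fat). NZO/HlLtJ male 44% fat replicate 2 stands highest at 0.62 and C57BL/6J male 10% fat replicate 3 lowest at -0.53, while the 7 CAST/EiJ males lie between -0.06 and 0.10.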

How the data were processed

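Per the labels, KAPA mRNA HyperPrep libraries of polyadenylated liver RNA gave paired 100-base reads. What the authors deposited are expected counts, of which 20.3% were not whole, and log2 variance-stabilized values. Per the submitters' processing notes the build was GRCm38 and DESeq2 was used. Which aligner and counter they ran, with or without strand and strain genomes, is not given in the sources used here. Every gene of the table had an expected count above 0 in at least 24 libraries.

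After rounding, the counts went into edgeR 4.0.16 (R 4.3.3) with filterByExpr and TMM factors. A robust quasi-likelihood fit of 12 group means used all 47 libraries (35 residual degrees of freedom). The same fit was afterwards run on counts simulated from the mean levels and spread of these data. Adjusted p-values are Benjamini-Hochberg values over 16650 genes, called under 0.05. Strain effects average over sexes and diets, diet effects over sexes, and sex effects over diets. The SE is the log2 fold change divided by the square root of F, and 95% intervals use 35 degrees of freedom. DESeq2 1.42.0, limma 3.58.1 (on variance-stabilized values), other scalings and filters, the identifier runs and leaving out libraries were alternatives. All 10 members are named, with up to 4 called genes of the smallest p per list and the 8 genes most like the members (mean log2 CPM of at least 1), except for 1 gene that is not reported here. Members and lists were chosen with earlier results of these data known. No 2 libraries of a group were alike within sampling noise. Motifs and shared 100-base stretches come from RefSeq promoters and GENCODE transcripts.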

Additional observations from a re-analysis of the deposited data

Results flagged for a closer look

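Single libraries far from the other 3 of their group were sought for each member in 109 combinations of gene and group with Dixon's test, which by chance marks about 1 in 20, and 11 were found. In C57BL/6J male 44% fat replicate 3, Tgtp1 was at 21.3 CPM (others 5.56 to 7.53), Tgtp2 at 12.3 CPM (3.8 to 5.19) and Gbp7 at 18.3 CPM (14.4 to 15). In NZO/HlLtJ male 44% fat replicate 2, Igtp was at 65.3 CPM (28.9 to 32.6) and Tgtp2 at 6.92 CPM (1.94 to 2.71). Tgtp2 was at 10.9 CPM in NZO/HlLtJ female 44% fat replicate 1 (3.88 to 5.04) and at 2.36 CPM in NZO/HlLtJ male 10% fat replicate 4 (4.64 to 5.1). Irgm2 was at 92.2 CPM in C57BL/6J female 44% fat replicate 3 (78.8 to 80.9) and Ifi47 at 7.71 CPM in CAST/EiJ female 10% fat replicate 2 (10.7 to 11.1). Of near-zero genes, Iigp1 was at 0.085 CPM in CAST/EiJ female 44% fat replicate 1 and Tgtp2 at 0.0674 CPM in CAST/EiJ male 44% fat replicate 3, with 3 counts each and 0 in the other libraries of the group.

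The sex effect of Irgm1 differed among the strains in the joint test (adjusted p = 0.00699). Between NZO/HlLtJ and CAST/EiJ the log2 sex effects differed by 0.75 for Irgm1, by -0.67 for Irgm2 and by 1.33 for Tgtp1.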

How the results depend on the processing

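No paired analysis was possible because the labels carry no replicate numbers. Of 39 called results on single members none reversed its sign under any alternative. The counts of members called were within 1.5 times of those reported for all 3 strain comparisons, for diet in C57BL/6J and CAST/EiJ and for both joint tests of diet. For diet in NZO/HlLtJ, DESeq2, limma and a fit of NZO/HlLtJ only each called 1 member in place of 0. For sex, runs with fewer libraries called 0 (run 2 alone) and 2 (run 3 alone) members in C57BL/6J in place of 4, 1 (run 1 alone) and 0 (run 3 alone) in CAST/EiJ in place of 6, and 3 (run 1 alone) in NZO/HlLtJ in place of 7. For a sex effect that differs among strains, in place of 1 member, RLE factors and the stricter filter called 2 each, DESeq2 and the fit without acinar libraries 3 each, limma 4 and run 1 alone 0. The cause was not tested, beyond the fewer libraries of a run. Leaving out each library in turn gave 8 to 9 members for CAST/EiJ over C57BL/6J, 3 to 3 for NZO/HlLtJ over C57BL/6J and 9 to 9 for NZO/HlLtJ over CAST/EiJ, 0 to 0 for every diet test, 3 to 9 for sex in NZO/HlLtJ, 4 to 6 in CAST/EiJ and 4 to 5 in C57BL/6J, and 1 to 3 for the sex effect among strains. Counts of Iigp1 and Tgtp2 in CAST/EiJ are too few for a fold change between diets or sexes.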
